A study of Mus musculus with 26 samples.

Results

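Naive microglia of the medial prefrontal cortex (mPFC) from TLR-DKO mice were compared with the same cells from wild-type mice, a contrast of genotype without stress. The comparison takes the arrays whose titles give genotype, region and the naive condition, which are 7 of the 26 arrays in the series: 4 of TLR-DKO and 3 of wild type. The TLR-DKO naive mice carried the double knockout together with CX3CR1EGFP/+, and the wild-type naive mice carried CX3CR1EGFP/+ alone, so mice of both genotypes had EGFP in 1 allele of Cx3cr1. The strain was C57BL/6 and all 7 samples came from cage-transferred mice, which were perfused 1.5 h after the last transfer. The labels do not spell out TLR-DKO, which is known from the study as the loss of Tlr2 and Tlr4, and they give neither the sex nor the age of the mice nor whether the genotypes were littermates. Each sample pooled EGFP-positive cells, sorted from 1.5 mm punches of 3 to 6 mice, until 500 pg of RNA was reached. The remaining 19 arrays hold R-SDS mPFC (3 TLR-DKO, 3 wild type), naive nucleus accumbens (NAc, 3 and 3) and R-SDS NAc (4 and 3), where R-SDS is repeated social defeat stress, and they share no array with naive mPFC. The labels do not say whether one mouse gave tissue of both regions, and a pool of mice hides the variation between animals.

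Microglia are the resident macrophages of the brain. They carry Toll-like receptors (TLRs), which bind microbial molecules and molecules released by damaged cells. TLR2 works at the cell surface in pairs with TLR1 or TLR6, TLR4 works with the co-receptors CD14 and MD-2 (encoded by Ly96), and both signal through the adaptors TIRAP and MyD88 to NF-kappaB, while TLR4 also signals through TICAM adaptors to IRF3. Microglia keep up this machinery without stress, and the naive comparison shows how the RNA of these cells differs between the genotypes before any stress is applied.

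A level below is log2 of the processed signal of a probe minus the 75th percentile of its array, so that 0 is the brightness of the 75th percentile probe, and levels of different probes cannot be set against each other. A difference is TLR-DKO minus wild type in log2 units, with the standard error (SE) of a limma fit over all 26 arrays in which the slide was a block, and a gene was called at a Benjamini-Hochberg adjusted p under 0.05 over 23035 genes tested. The 75th percentile signal of the 7 arrays ran from 186.1 to 221.9 units in TLR-DKO and from 127.7 to 340.5 units in wild type, and 55.2% to 60.1% of spots were well above background in TLR-DKO and 54.0% to 71.0% in wild type. Slide 1 held TLR-DKO replicate 1 with wild-type replicates 1 and 2, and slide 2 held TLR-DKO replicates 2, 3 and 4 with wild-type replicate 3. Slides stood further apart than genotypes: the median Pearson r across genes was 0.876 for arrays of the same slide and 0.839 for arrays of different slides, and the first principal component of the 7 arrays (27.8% of the variance) separated the slides. The second component (19.1%) separated the genotypes, with wild type at 8.46 to 101.9 and TLR-DKO at -98.9 to -23.2. TLR-DKO replicate 1 stood apart, with a mean r of 0.813 with the other TLR-DKO arrays, against 0.849 to 0.855 for the other TLR-DKO arrays, and wild-type replicate 3 was the brightest array of the series and the only wild-type naive array on its slide. Where a list's median below changes sign without either array, that median is given too. The 10 microglia markers, among them Cx3cr1, P2ry12 and Tmem119, were well above background on all 7 arrays.

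The genotypes differed in 2 of 23035 features, both lower in TLR-DKO, which is 0.00868% of those tested. One was Tlr2 itself. The other was the probe NAP060823-1, to which the files and the reference give no gene. At an unadjusted p under 0.05 stood 1548 genes, 6.72% of those tested, of which 726 had a difference above 0 (3.15%) and 822 below 0 (3.57%). The groups did not overlap in 1378 genes, which is 5.98%.

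Tlr2 had levels of -3.85, -3.95, -3.72 and -3.57 in TLR-DKO, against 1.38, 1.75 and 2.56 in wild type. The probe was not well above background on any TLR-DKO array and was well above it on all 3 wild-type arrays, so the groups lie far apart and the fold is a bound: Tlr2 was at least 46.6-fold lower in TLR-DKO. The bound takes as the TLR-DKO level, on each array, the higher of the lowest signal that is well above background and the probe's own signal. The fitted difference was -5.71 ± 0.39 with a limma adjusted p of 2.41e-07, and it was -5.42 within slide 1 and -6.31 within slide 2. This checks the label for Tlr2.

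Tlr4 encodes the receptor for bacterial lipopolysaccharide. Its levels were 1.84, 2.96, 1.65 and 3.86 in TLR-DKO and 1.89, 1.82 and 2.81 in wild type. The groups overlap, the difference was 0.21 ± 0.54 (limma adjusted p = 0.985), and the probe was well above background on all 7 arrays. The files do not say which part of the transcript the probe reads, so it does not check the Tlr4 label.

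NAP060823-1 had levels of -1.55, -1.65, -2.05 and -1.97 in TLR-DKO, against 1.69, 2.21 and 0.54 in wild type. Every TLR-DKO array lay below every wild-type array, and the probe was well above background on all 7. The difference was -3.21 ± 0.40 with a limma adjusted p of 0.00241. Within slide 1 it was -3.50 and within slide 2 -2.43, where the adjusted p was 0.198, and it also missed the threshold in the fit of the 13 mPFC arrays alone (adjusted p = 0.212) and of the 7 naive mPFC arrays alone (adjusted p = 0.437). The probe was named after its values were seen, since it is one of the 2 calls.

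**Figure D1:**
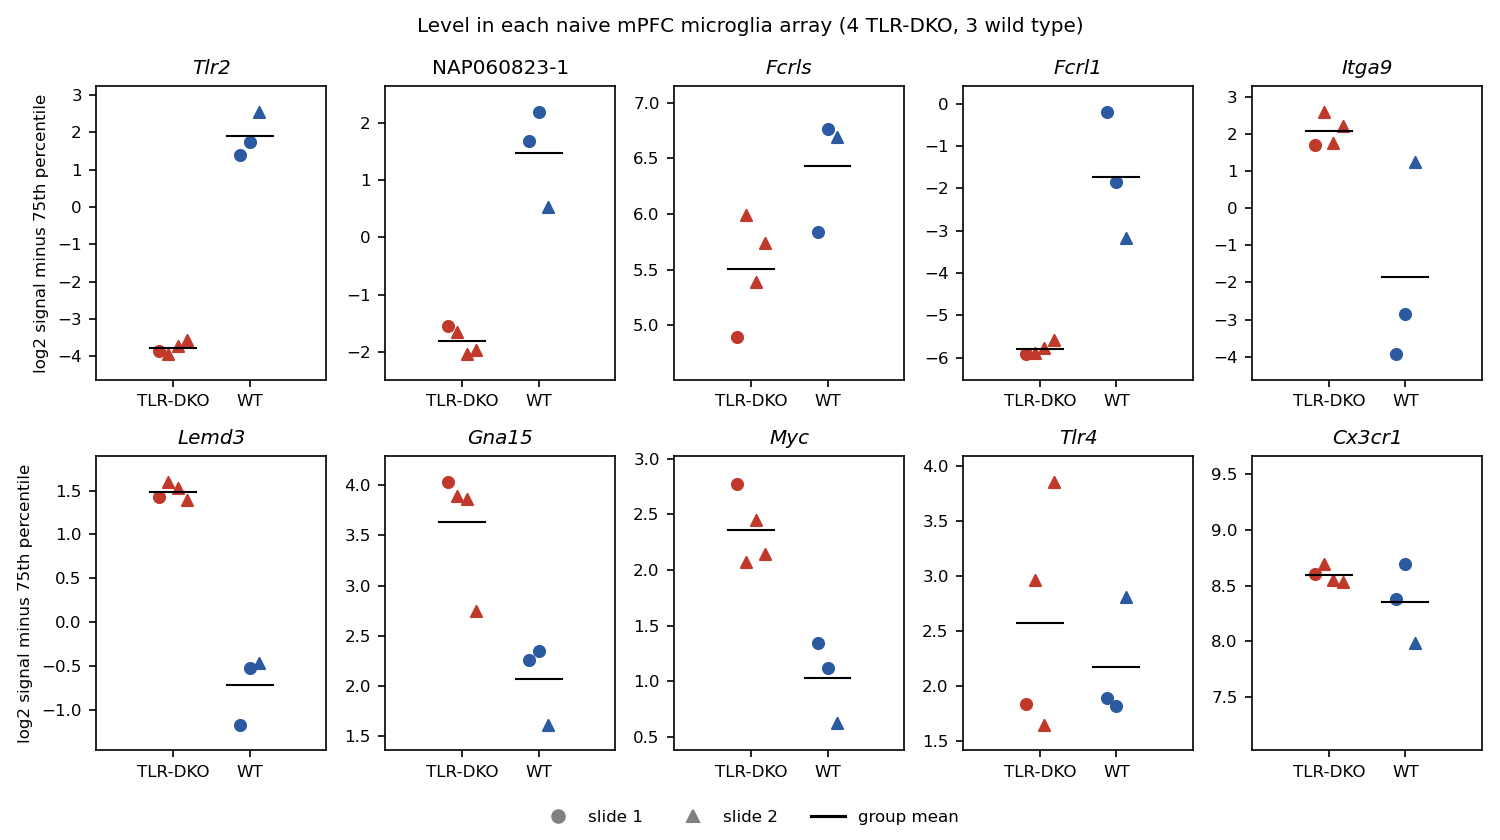
Level of 10 genes or probes in each naive mPFC array, as log2 signal minus the 75th percentile of the array (vertical axis, its range set per panel), with TLR-DKO in red and wild type in blue, circles for slide 1, triangles for slide 2 and a line at each group mean. Tlr2 lies between -3.95 and -3.57 in TLR-DKO and between 1.38 and 2.56 in wild type, while the groups overlap for Fcrls, Tlr4 and Cx3cr1.

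The other receptors and co-receptors of the family were not called. Of the 22 on the list, 19 were tested, 13 with a difference above 0 and 6 below, and only Tlr2 passed. Their median difference was 0.11, beside 0.02 over all genes tested, and -0.23 without TLR-DKO replicate 1. The partners with which TLR2 pairs were near 0 with wide errors: Tlr1 differed by -0.56 ± 0.75 and Tlr6 by 0.01 ± 0.96. Among the endosomal receptors, which sense nucleic acids, Tlr7 differed by 0.47 ± 0.39, Tlr9 by 0.11 ± 0.32, Tlr3 by 0.10 ± 0.62 and Tlr13, which binds bacterial ribosomal RNA in mice, by 0.72 ± 0.38. Tlr13 had levels of 3.94, 3.14, 4.15 and 3.87 in TLR-DKO and 2.16, 2.95 and 3.52 in wild type, which overlap. Tlr5, the receptor for flagellin, differed by -0.48 ± 0.61 and Tlr12 by -0.39 ± 0.40.

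Of the co-receptors, Cd180, a TLR-like surface receptor that pairs with MD-1, had the smallest p after Tlr2. Its levels were 2.25, 2.22, 2.13 and 3.29 in TLR-DKO and 1.15, 1.05 and 1.86 in wild type. All TLR-DKO arrays lay above all wild-type arrays, yet the difference of 1.33 ± 0.56 missed the threshold (limma adjusted p = 0.686). Ly86, which encodes MD-1, differed by 0.09 ± 0.33, Cd14 by 0.29 ± 0.42 and Ly96, which encodes the MD-2 that TLR4 needs, by -1.04 ± 0.69. Ly96 levels overlapped, at 3.19, -0.12, 1.35 and 0.89 in TLR-DKO and 2.59, 3.83 and 2.23 in wild type. The chaperones that fold or move TLRs were close to 0 or slightly above it: Unc93b1 by 0.42 ± 0.29, Hsp90b1 by 0.40 ± 0.30 and Cnpy3 by 0.19 ± 0.45.

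**Figure D2:**
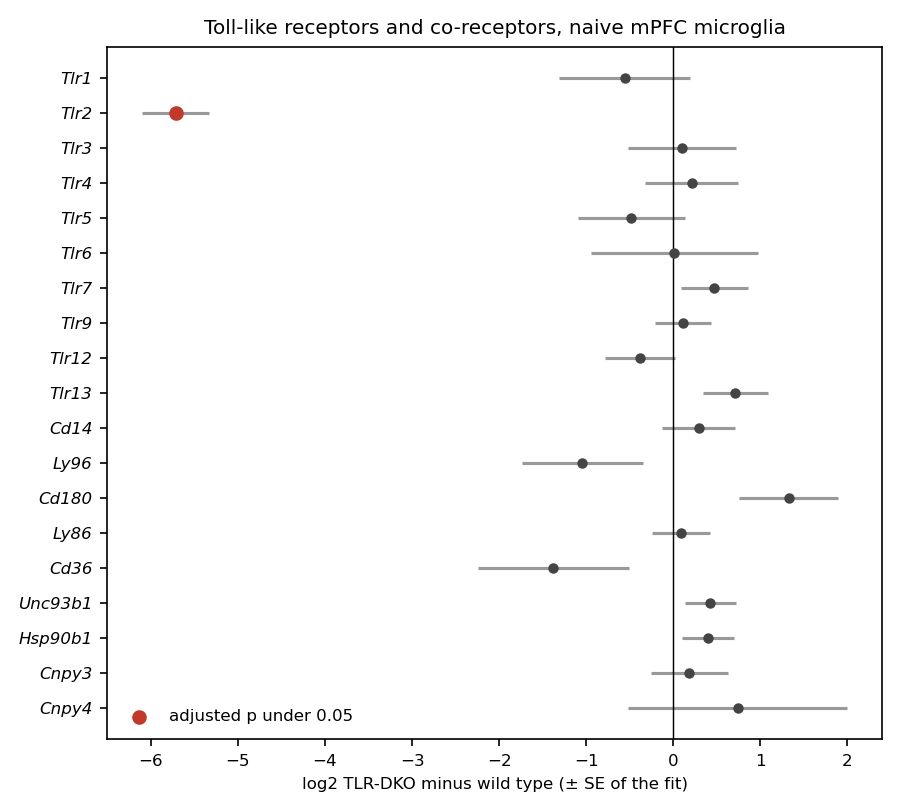
Difference between TLR-DKO and wild type in naive mPFC microglia (horizontal axis, log2, with the SE of the limma fit as bars) for the 19 tested Toll-like receptors and co-receptors. Tlr2 at -5.71 is the only one past the threshold and the others lie between -1.38 and 1.33.

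Downstream of the receptors, 0 of 23 tested adaptors and kinases were called and 1 had an unadjusted p under 0.05, with a median difference of 0.07, and -0.11 without wild-type replicate 3. Tollip, which binds TLR2 and TLR4 and dampens their signal, had the smallest p of this list, with levels of 3.19, 4.08, 3.04 and 4.25 in TLR-DKO and 2.89, 3.24 and 2.28 in wild type. These ranges overlap (1.01 ± 0.46, limma adjusted p = 0.722), and its 2 other probes went the other way, at -1.41 and -0.48. Mapk14, the p38 kinase, differed by 1.01 ± 0.62, with 3.09 within slide 1 and -0.20 within slide 2, and Tab1, a partner of the kinase TAK1, by -1.52 ± 0.99. Of the NF-kappaB subunits, targets and feedback inhibitors, 0 of 25 were called and 0 had an unadjusted p under 0.05 (median 0.19): Tnip1, which restrains NF-kappaB with A20, differed by -1.81 ± 0.88, Nfkb1 by -0.57 ± 0.35 and Chuk, a kinase of the inhibitor of NF-kappaB, by 0.79 ± 0.44. Tnip1 differed by -3.44 within slide 1 and -0.00 within slide 2. The NF-kappaB median was -0.09 without wild-type replicate 3 and 0.93 without TLR-DKO replicate 1. Another probe of Mapk14 gave -0.20.

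Cytokines and chemokines, the products of the pathway, had 0 calls among 21 tested and 1 gene at an unadjusted p under 0.05. Il10, Il12b, Cxcl1 and Osm are on the list and were not tested. Ccl5, a chemokine for T cells, had levels of 1.84, 1.91, 2.82 and 3.47 in TLR-DKO and 2.16, 1.11 and 0.47 in wild type (1.41 ± 0.62, limma adjusted p = 0.696), with an overlap through wild-type replicate 1. Il1b differed by -1.17, Il1a by 0.69, Ccl3 by 0.53 and Ccl12 by -0.80. The list's median was 0.22, with -0.89 within slide 1, 0.99 within slide 2 and -0.25 without wild-type replicate 3. Of the type I interferon genes, which TLR4 reaches through TICAM1, 0 of 17 were called and 1 had an unadjusted p under 0.05. Ifih1, a sensor of double-stranded RNA, differed by 1.59 ± 0.73 and Ifit3 by -3.22 ± 2.00, with 2 of its 4 TLR-DKO arrays well above background.

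The identity genes of microglia gave small differences, with 1 exception. Of 29 homeostatic genes, all tested, 0 were called, 1 had an unadjusted p under 0.05 and the median difference was 0.09, with 21 above 0. Without wild-type replicate 3 the median was -0.30, with 9 of 29 above 0, beside -0.09 over all genes. Cx3cr1, the fractalkine receptor, had levels of 8.61, 8.69, 8.55 and 8.53 in TLR-DKO and 8.38, 8.70 and 7.99 in wild type, a difference of 0.15 ± 0.31. P2ry12 differed by 0.11 ± 0.29, Tmem119 by -0.00 ± 0.26, Csf1r by 0.06 ± 0.38 and Trem2 by 0.12 ± 0.30. The exception, with the smallest p of the list, was Fcrls.

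Fcrls encodes a scavenger-type Fc receptor-like protein that is a marker of mouse microglia. Its levels were 4.89, 5.99, 5.39 and 5.74 in TLR-DKO and 5.84, 6.76 and 6.70 in wild type. On slide 1 the TLR-DKO array lay below both wild-type arrays, and on slide 2 the 3 TLR-DKO arrays lay below the wild-type array, while across slides TLR-DKO replicate 2 passed wild-type replicate 1. The difference was -1.23 ± 0.28 and missed the threshold over all genes (limma adjusted p = 0.378). It was -1.41 within slide 1, -0.99 within slide 2 and -0.93 without the slide term.

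The 19 arrays of the other 3 settings also measured Fcrls and share no array with naive mPFC. However, 1 slide term was fitted over the naive and R-SDS arrays of mPFC together. The R-SDS mPFC difference, and an average that holds it, are therefore not fully separate from the naive mPFC difference. Fcrls differed by -1.37 ± 0.28 in R-SDS mPFC, -1.14 ± 0.28 in naive NAc and -1.33 ± 0.26 in R-SDS NAc. None of these passed the threshold alone, with adjusted p of 0.244, 0.668 and 0.444, but their average of -1.28 ± 0.16 did, with a limma adjusted p of 0.00134. That average was chosen after the data had been seen. In it 3 features of 23035 were called (0.0130%), all lower: Tlr2, NAP060823-1 and Fcrls. In the limma fit, the naive mPFC difference minus the R-SDS mPFC difference was 0.15 ± 0.39 (limma adjusted p = 0.937), and minus the naive NAc difference it was -0.09 ± 0.39 (adjusted p = 1.00).

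Fcrl1, of the same family and known from B cells, was named after its values were seen. Its levels were -5.92, -5.88, -5.78 and -5.59 in TLR-DKO and -0.19, -1.85 and -3.18 in wild type. It was not well above background on any TLR-DKO array and was so on all 3 wild-type arrays, as were 72 of all genes tested (0.313%). It was at least 3.75-fold lower in TLR-DKO by the bound, with a fitted difference of -3.58 ± 0.92 that missed the threshold (limma adjusted p = 0.5). The difference was -2.72, -3.24 and -2.77 in R-SDS mPFC, naive NAc and R-SDS NAc, with an average that also missed it (-2.91 ± 0.53, adjusted p = 0.134). B-cell markers overlapped between the genotypes, with a summed signal of 8.86 to 16.0 multiples of the 75th percentile in TLR-DKO and 8.15 to 15.2 in wild type. That sum rested mainly on Cd22, with mean levels of 3.25 in TLR-DKO and 3.32 in wild type. Every other B-cell marker on the array had mean levels below 0, and Ms4a1 was not well above background on any array.

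Fcrls and Fcrl1 lie on chromosome 3, as Tlr2 does. In the RefSeq gene order of assembly GRCm38.p6, 67 annotated genes lie between Tlr2 and Fcrls and 71 between Tlr2 and Fcrl1, of which 19 and 21 are protein-coding. The labels do not say how the knockout alleles were made or crossed.

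Closer to the targeted genes few probes could be read. Of the 15 annotated genes on each side of Tlr2, 14 are on the array and 6 were tested, 1 with a difference above 0 and 5 below, and 0 were called. Trim2, a ubiquitin ligase, differed by -2.14 ± 0.79 (limma adjusted p = 0.623). TLR-DKO replicate 1 was lowest and replicate 3 also lay below wild type: its levels were -1.88, 2.76, 0.74 and 2.95 in TLR-DKO and 2.04, 2.86 and 2.68 in wild type, and without replicate 1 the difference was -1.03, while another probe of Trim2 gave 0.85. Tmem131l, next to Tlr2, differed by -1.60 ± 1.00, Plrg1 by -0.29 ± 0.61 (0.69 for another probe) and Arfip1 by -0.02 ± 0.36. Of the genes around Tlr4, 7 are on the array and 3 were tested, with 0 called: Trim32 differed by -0.80 ± 0.74, Tnfsf8 by 0.26 ± 0.46 and Pappa by -0.19 ± 0.38.

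Itga9, an integrin subunit, was also named after its values were seen. Its levels were 1.69, 2.60, 1.76 and 2.20 in TLR-DKO and -3.94, -2.85 and 1.24 in wild type. The 4 TLR-DKO arrays lay close together and above all wild-type arrays, of which only replicate 3 was well above background. The difference was 3.17 ± 0.78 (limma adjusted p = 0.5), and it was 5.08 within slide 1 and 0.94 within slide 2. Without wild-type replicate 3 it was 4.81 and passed the threshold (adjusted p = 0.0246). In the other settings it was 2.30 in R-SDS mPFC, 2.77 in naive NAc and 0.84 in R-SDS NAc, an average of 1.97 that missed it (adjusted p = 0.245).

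**Figure D3:**
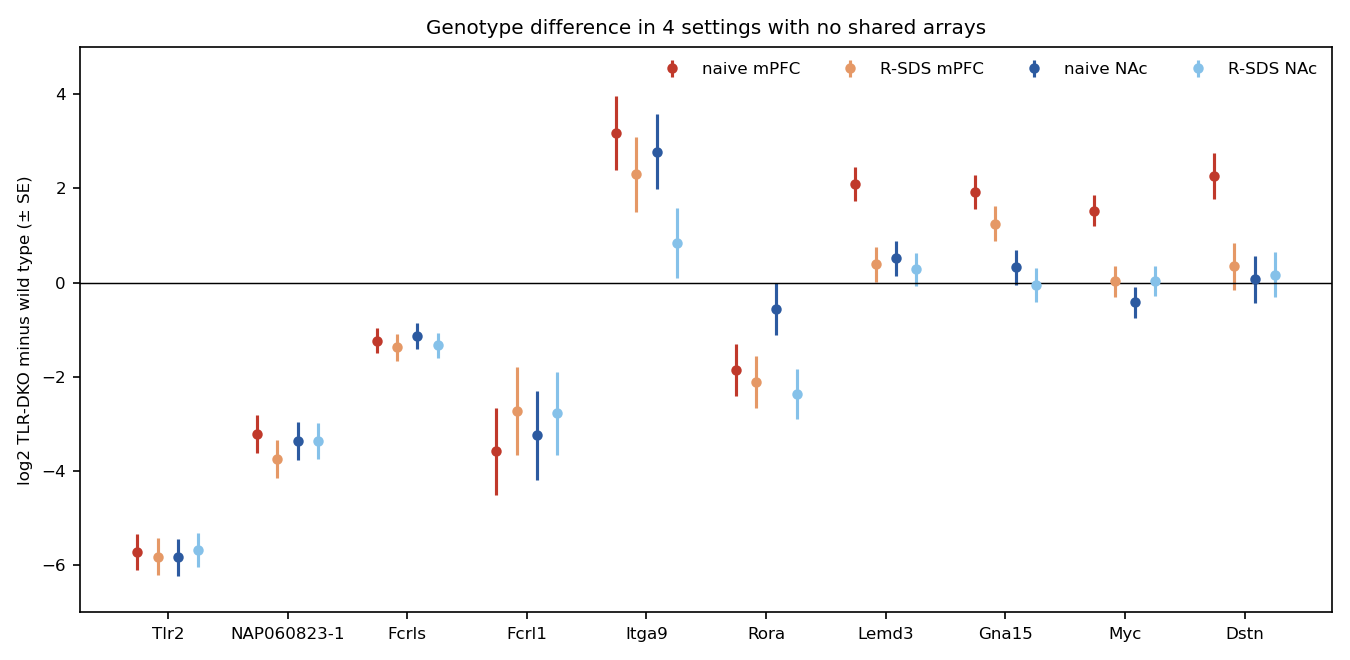
Difference between TLR-DKO and wild type (vertical axis, log2, bars are the SE of the limma fit) for 10 genes or probes in naive mPFC, R-SDS mPFC, naive NAc and R-SDS NAc. Tlr2, NAP060823-1, Fcrls and Fcrl1 lie below 0 in all 4 settings. Lemd3, Myc and Dstn, which were chosen by their p in naive mPFC, stand at 1.52 to 2.26 there. They lie between -0.42 and 0.52 in the other 3.

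Among RefSeq-named genes, those above 0 with the smallest p after the calls were Lemd3, Gna15, Myc, Dstn, Ms4a6b and Gfpt1, and none of the 6 passed. Lemd3, an inner nuclear membrane protein that binds receptor-regulated Smads, had levels of 1.42, 1.60, 1.53 and 1.39 in TLR-DKO and -1.17, -0.53 and -0.46 in wild type. The groups lie apart and the 4 TLR-DKO arrays lie close together. The difference was 2.09 ± 0.36 (limma adjusted p = 0.127), a second Lemd3 probe gave 2.97, and without the slide term the difference was 2.21 and was called (adjusted p = 0.0341). In the other 3 settings Lemd3 differed by 0.39, 0.52 and 0.29, all below 1 log2 unit. Lemd3 was chosen by its p in naive mPFC, and the tests against other settings contain that same difference. A small unadjusted p in them is therefore no separate support. The test of the difference from naive mPFC gave an unadjusted p of 0.00388 against R-SDS mPFC and 0.00679 against naive NAc, which did not hold over all genes (adjusted p = 0.687 and 1).

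Gna15, a G protein alpha subunit of blood cells, had levels of 4.03, 3.89, 3.86 and 2.74 in TLR-DKO and 2.25, 2.35 and 1.61 in wild type. The groups lie apart, with TLR-DKO replicate 4 nearest to wild type (1.92 ± 0.37, limma adjusted p = 0.275). Myc, a transcription factor of growth, had levels of 2.78, 2.07, 2.45 and 2.15 in TLR-DKO and 1.35, 1.12 and 0.62 in wild type. These too lie apart (1.52 ± 0.33, adjusted p = 0.365). The Myc difference was 0.03 in R-SDS mPFC and -0.42 in naive NAc. In limma the test of naive mPFC against naive NAc gave an unadjusted p of 0.000533 and an adjusted p of 0.942. Myc too was chosen by its p in naive mPFC, which that test contains. Dstn, which encodes the actin-severing protein destrin, differed by 2.26 ± 0.49 (adjusted p = 0.373), Ms4a6b, a membrane protein of the MS4A family, by 3.55 ± 0.82 (adjusted p = 0.405), and Gfpt1, the entry enzyme of the hexosamine pathway, by 1.34 ± 0.31 (adjusted p = 0.44). In each of the 3 the groups do not overlap, as in 5.98% of all genes. They were chosen by p in these same arrays, so this is no separate support.

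Of the RefSeq-named genes, those below 0 with the smallest p after the calls were Gm9999, Nckap5l, Gadd45g, Adhfe1, Fcrls and Zfp68. Gm9999, a predicted gene, had levels of -3.50, -4.17, -5.16 and -4.26 in TLR-DKO and 0.30, 0.74 and 0.59 in wild type. The groups lie apart and only 1 TLR-DKO array was well above background (-4.84 ± 0.98, limma adjusted p = 0.275). With normexp background correction the difference was -2.36 and was called (adjusted p = 0.015). Adhfe1, a mitochondrial hydroxyacid transhydrogenase, was not well above background on any TLR-DKO array and was at least 4.39-fold lower by the bound (-3.84 ± 0.85, adjusted p = 0.373). In R-SDS mPFC the sign was the other one for both, with 0.65 for Gm9999 and 0.50 for Adhfe1. Nckap5l differed by -2.82 ± 0.59 (adjusted p = 0.329). Zfp68, a zinc finger gene, differed by -3.25 ± 0.74, but its 2 other probes gave -0.17 and -1.38.

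Gadd45g, a stress-inducible growth arrest gene, had levels of -1.52, 1.80, 0.32 and 1.64 in TLR-DKO and 1.68, 2.55 and 3.15 in wild type. The groups overlap through TLR-DKO replicate 2, and TLR-DKO replicate 1 was the lowest (-2.96 ± 0.64, limma adjusted p = 0.373). It belongs to the glucocorticoid list, in which 3 of 22 tested genes were above and 3 below 0 at an unadjusted p under 0.05, 27.3% of the list beside 6.72% of all genes, with 0 called. Fkbp4, a co-chaperone of the glucocorticoid receptor, had levels of -3.56, 0.39, 0.76 and 1.49 in TLR-DKO and 1.21, 1.20 and 2.03 in wild type. Again TLR-DKO replicate 1 was lowest (-2.78 ± 0.74, adjusted p = 0.5). The difference was -4.76 within slide 1, which was called there (adjusted p = 0.0141), and -1.15 within slide 2, and it was -1.83 without TLR-DKO replicate 1. Sgk1 differed by 0.65 and Tsc22d3, which encodes GILZ, by 0.83, both glucocorticoid targets, and the mineralocorticoid receptor Nr3c2 by -2.11. The genes of this list named here lay on both sides of 0, and the list's median was 0.12.

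The clock genes overlapped with these through Per1. Per1, a repressor of the clock and a glucocorticoid target, had levels of 2.53, 2.63, 2.14 and 3.39 in TLR-DKO and 0.30, 0.26 and 1.83 in wild type, which do not overlap (1.36 ± 0.56, limma adjusted p = 0.683). Of 18 clock genes tested, 0 were called. At an unadjusted p under 0.05, 3 lay above and 2 below 0, 27.8% of the list beside 6.72% of all genes. The list's median was -0.23, and 0.04 without wild-type replicate 3. Rora, an activator of the clock gene Arntl, differed by -1.85 ± 0.55 (adjusted p = 0.508), and by -2.11, -0.56 and -2.37 in R-SDS mPFC, naive NAc and R-SDS NAc. Cirbp, a cold-inducible RNA-binding protein, differed by 1.11 ± 0.37 and Nfil3 by 1.63. Arntl, Per2, Per3 and Cry1 were too dim to be tested.

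The phagocytic and complement lists had 0 calls each. The groups did not overlap in 5 of 24 phagocytic and 4 of 19 complement genes tested, beside 5.98% of all genes. Below 0 at an unadjusted p under 0.05 were 3 of 24 phagocytic receptors (12.5%). Above 0 at that p were 2 of 19 complement genes (10.5%), beside 6.72% of all genes with either sign. Fcgr1, the high-affinity IgG receptor, had levels of 0.51, 2.16, 0.94 and 1.56 in TLR-DKO and 2.29, 2.45 and 3.06 in wild type. All TLR-DKO arrays lay below all wild-type arrays, by -1.86 within slide 1 and -1.51 within slide 2, and the difference of -1.62 ± 0.47 missed the threshold (limma adjusted p = 0.508). Tyro3, a receptor for apoptotic cells, differed by -0.85 ± 0.30 and its relative Mertk by -0.54 ± 0.29. The scavenger receptor Scarb1 differed by -1.68 ± 0.75, but its other probe gave 2.22. C1qa, a chain of the first complement component, had levels of 7.22, 7.10, 7.07 and 6.89 in TLR-DKO and 6.47, 6.17 and 6.44 in wild type. The groups do not overlap (0.62 ± 0.25, adjusted p = 0.661), while the other chains C1qb and C1qc differed by 0.27 and 0.35. The receptor for complement fragment C5a, C5ar1, differed by 1.19 ± 0.55 with overlap.

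Of the antigen presentation list, the 3 genes described here lay above 0. H2-K1, a classical class I heavy chain, had levels of 5.79, 5.92, 6.47 and 5.81 in TLR-DKO and 4.44, 5.11 and 5.38 in wild type, and H2-D1 differed by 0.60 ± 0.33. The H2-K1 groups do not overlap (0.77 ± 0.29, limma adjusted p = 0.625), and its other probe gave 0.33. Tapbp, which loads peptides on class I, differed by 0.68 ± 0.32. In the whole list 14 of 20 tested members lay above 0, beside 51.8% of all genes, 0 were called and 1 had an unadjusted p under 0.05, with a median of 0.46 that ran from 0.15 to 0.57 when each naive array was left out in turn. The H2 genes resemble each other in sequence, so a probe of one may also bind RNA of another.

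Ribosomal and lysosomal lists lay mostly above 0, to an extent that moved with 1 wild-type array. Of 45 tested ribosomal protein genes, 44 differed by more than 0, with a median of 0.46, 0 calls and 5 (11.1%) at an unadjusted p under 0.05. Of 29 lysosomal genes 24 lay above 0, with a median of 0.24, 0 calls and 3 (10.3%) at an unadjusted p under 0.05. Of all genes 6.72% stood at that p. Without wild-type replicate 3 the counts were 25 of 45 with a median of 0.06 and 14 of 29 with a median of -0.00, beside -0.09 over all genes, and 43.9% of all genes above 0. That fit has no wild-type naive array on slide 2, so its slide term rests on the other groups. Within slide 1, which does not hold wild-type replicate 3, 39 of 45 ribosomal genes lay above 0 (median 0.38). So did 23 of 29 lysosomal genes (median 0.30), beside 53.8% of all genes. Within slide 2, where replicate 3 is the only wild-type naive array, the counts were 45 of 45 (median 0.87) and 25 of 29 (median 0.40), beside 56.4%. Mcoln1, a calcium channel of the lysosome, had levels of 2.75, 1.73, 2.71 and 2.12 in TLR-DKO and 1.04, -0.58 and 0.76 in wild type (1.69 ± 0.56, limma adjusted p = 0.576), and Lyz1, a lysozyme that shares most of its sequence with Lyz2, differed by 1.14 ± 0.38.

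The immediate early and heat shock list changed sign with the slide. Of 28 tested genes 19 lay above 0, 0 were called and 2 had an unadjusted p under 0.05 (7.14%, beside 6.72% of all genes). The median was 0.39 in the whole fit, -0.60 within slide 1 and 1.03 within slide 2, and -0.17 without wild-type replicate 3. Atf3, a stress-inducible transcription factor, had levels of 2.84, 4.25, 4.38 and 3.14 in TLR-DKO and 2.34, 2.81 and 1.63 in wild type. The lowest TLR-DKO array lay just above the highest wild-type array (1.33 ± 0.50, limma adjusted p = 0.625). Dnajb4, a heat shock co-chaperone, differed by 1.92 ± 0.71 and Klf4 by 1.00 ± 0.49.

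**Figure D4:**
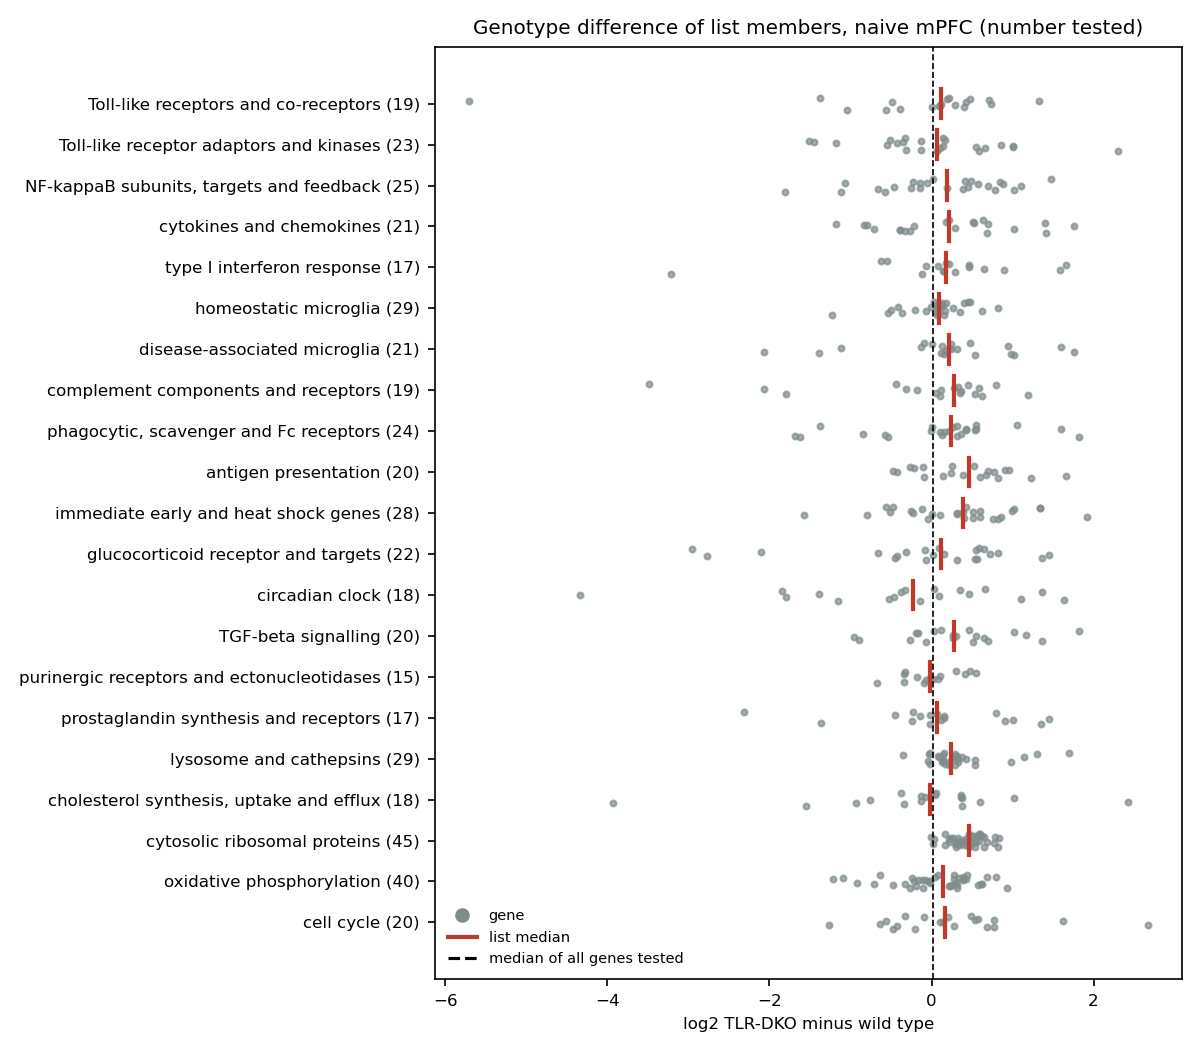
Difference between TLR-DKO and wild type (horizontal axis, log2) of each tested gene of 21 pathway lists, with the number tested in brackets, a red bar at the list's median and a dashed line at the median of all genes tested. Medians lie between -0.23 (circadian clock) and 0.46, and the point at -5.71 is Tlr2.

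The remaining 7 pathway lists had 0 calls each and 0 to 2 genes at an unadjusted p under 0.05. The disease-associated microglia list had a median of 0.22, with 16 of 21 above 0. Without wild-type replicate 3 the median was -0.01, with 9 of 21 above 0, and without TLR-DKO replicate 1 it was 0.00. In this list Apoe, a lipid carrier, had levels of 6.87, 6.34, 7.44 and 6.64 in TLR-DKO and 5.26, 5.77 and 6.14 in wild type. All TLR-DKO arrays lay above all wild-type arrays (1.02 ± 0.58, limma adjusted p = 0.81). TGF-beta signalling had a median of 0.28, with Smad5 at 1.37 ± 0.51. The purinergic list had a median of -0.02, prostaglandin genes 0.07, with the degrading enzyme Hpgd at 1.01 ± 0.30, cholesterol genes -0.02, oxidative phosphorylation 0.14 and the cell cycle 0.17. The prostaglandin median was -0.10 without wild-type replicate 3, and without TLR-DKO replicate 1 the cholesterol median was 0.05 and the cell cycle median -0.03.

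Markers of other cells that an EGFP gate or a punch could hold were measured beside these results. Perivascular macrophages also express Cx3cr1 in part, and of their 12 markers 9 lay above 0, with a median of 1.38, 0 called and 0 at an unadjusted p under 0.05. Their summed signal was 70.7, 38.8, 108 and 22.9 multiples of the 75th percentile in TLR-DKO and 19.2, 32.8 and 17.9 in wild type, with 9 to 12 markers well above background in TLR-DKO and 10 to 12 in wild type. The groups overlap through TLR-DKO replicate 4. F13a1 had levels of 4.15, 3.91, 4.95 and 3.27 in TLR-DKO and 1.46, 0.44 and 2.29 in wild type, which do not overlap (2.17 ± 1.37, limma adjusted p = 0.84), and Mrc1 differed by 1.63 ± 1.34, Pf4 by 3.26 ± 1.64 and Cbr2 by 2.63 ± 1.36. The 3 markers below 0 were Folr2 at -1.78 ± 1.22, Siglec1 at -0.28 ± 0.50 and Cd209f at -0.20 ± 1.17. Apoe and the genes of lysozyme and antigen presentation, given above, are also known from macrophages outside the parenchyma. The part of such cells in their values was not tested, and in pooled sorted cells a larger share of a cell type and more RNA per cell cannot be told apart.

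The summed signals of the other marker lists overlapped. Microglia markers summed to 1485 to 1870 multiples of the 75th percentile in TLR-DKO and 1218 to 2088 in wild type. Of these 10 markers 7 differed by more than 0, and 0 without wild-type replicate 3. Astrocyte markers had a median difference of -0.85 over 7 tested, with 6 below 0 and 0 called. At an unadjusted p under 0.05 stood 2 of them (28.6%), both below 0, beside 6.72% of all genes. Their sums were 24.2 to 36.9 in TLR-DKO and 25.9 to 49.4 in wild type. Gja1, Sox9, Ntsr2, Gjb6 and S100b were too dim to be tested. Monocyte markers summed to 4.37 to 9.57 in TLR-DKO and 5.05 to 6.69 in wild type. Of 5 tested, 3 lay above 0, and 1 of those (20%) had an unadjusted p under 0.05. Neuronal markers summed to 29.6 to 58.7 in TLR-DKO and 28.5 to 96.7 in wild type. Oligodendrocyte markers summed to 17.8 to 46.6 in TLR-DKO and 19.7 to 23.6 in wild type, with TLR-DKO replicate 3 the highest array. Endothelial and mural markers summed to 7.54 to 10.4 in TLR-DKO and 6.42 to 11.2 in wild type, and T and NK cell markers had a median sum of 16.3 in TLR-DKO and 16.7 in wild type. The neuronal sum rested mainly on Snap25 (mean level 5.19 in TLR-DKO, 5.57 in wild type) and the endothelial sum on Kdr (2.79 and 2.71). Nkg7 (3.26 and 3.33) and Cd4 (2.28 and 2.72) made up most of the T and NK cell sum.

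**Figure D5:**
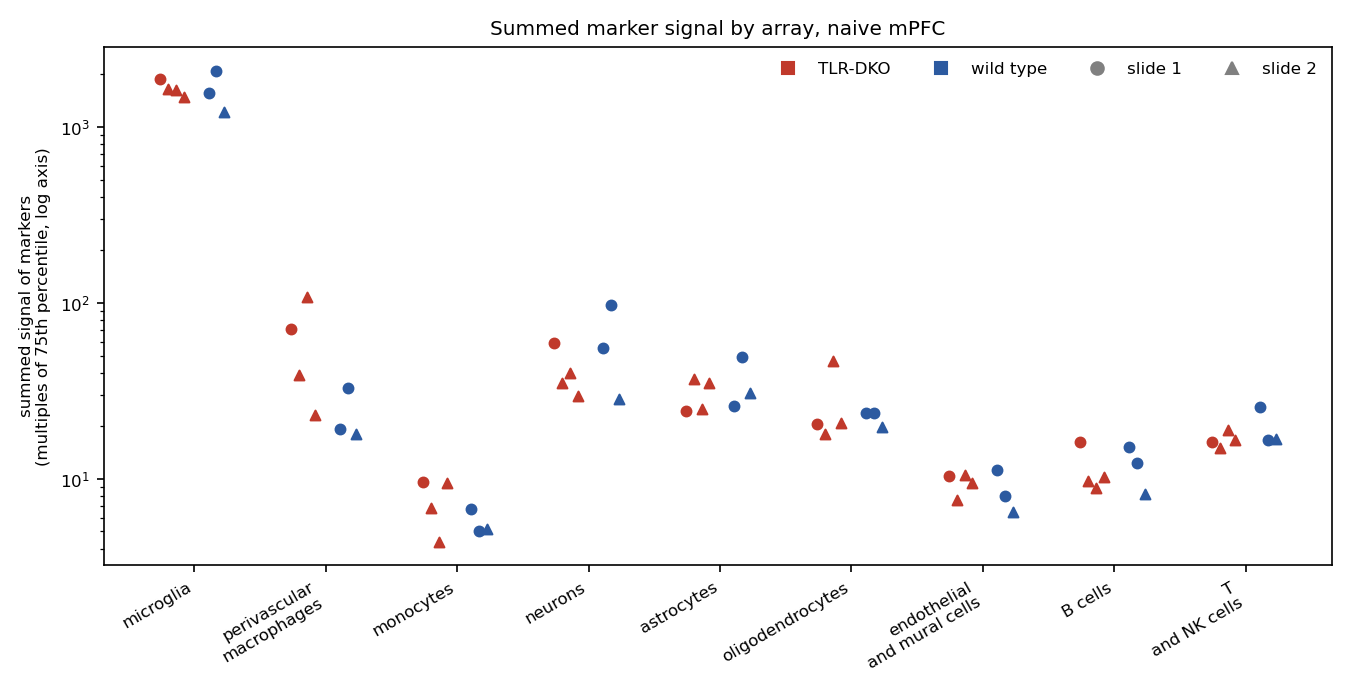
Summed signal of the markers of 9 cell types in each naive mPFC array (vertical axis, multiples of the array's 75th percentile signal, log axis), with TLR-DKO in red left of wild type in blue, circles for slide 1 and triangles for slide 2. Perivascular macrophage markers run from 22.9 to 108 in TLR-DKO and from 17.9 to 32.8 in wild type, and microglia markers overlap.

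The tests of whether the genotype difference itself differs between settings gave 0 calls. Against R-SDS mPFC, 0 of 23035 genes passed in limma, with 1633 (7.09%) at an unadjusted p under 0.05 and a smallest adjusted p of 0.501. Against naive NAc, 0 passed, with 1024 (4.45%) at an unadjusted p under 0.05 and a smallest adjusted p of 0.682. The genotype itself was called in 3 genes in R-SDS mPFC, 3 in naive NAc and 2 in R-SDS NAc. Tlr2 and NAP060823-1 were in all of these calls, and Tlr2 differed by -5.82, -5.83 and -5.68 there. With array weights the R-SDS mPFC count rose to 397, while without wild-type R-SDS replicate 3 it was 3. The average of the other 3 settings had 31 calls with array weights, against 3 in the main fit. Of the 1548 genes at an unadjusted p under 0.05 in naive mPFC, 839 had the same sign in R-SDS mPFC, 904 in naive NAc and 828 in R-SDS NAc, which is 54.2%, 58.4% and 53.5%. The share of all genes with the same sign was not counted, so these shares have no background beside them. Of the 23035 genes, 11939 lay above 0 in naive mPFC, 7700 in R-SDS mPFC, 10533 in naive NAc and 9317 in R-SDS NAc. In R-SDS mPFC the median over all genes was -0.24 rather than near 0, and that setting holds wild-type R-SDS replicate 3, the dimmest array of the series.

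Among the RefSeq-named genes with the smallest p in the average of the other 3 settings, those after Fcrls and Fcrl1 were Rora, Grxcr1 and Slc18a2. Grxcr1 had levels of -4.01, -4.53, -3.31 and -5.46 in TLR-DKO and -2.79, -2.38 and -3.01 in wild type of naive mPFC. The groups do not overlap (-1.58 ± 0.54, limma adjusted p = 0.593), although only 1 TLR-DKO array was well above background, so the size of the difference is uncertain, and the average elsewhere was -1.62 ± 0.31 (adjusted p = 0.162). Slc18a2, the vesicular monoamine transporter, went the other way: -1.77 ± 1.11 in naive mPFC, where 2 of 4 TLR-DKO arrays were well above background, and 3.28 ± 0.64 in the average elsewhere (adjusted p = 0.162).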

How the data were processed

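RNA of sorted EGFP-positive cells was measured on single-colour (Cy3) Agilent mouse arrays. Per the file headers, the deposited scanner tables give intensity per spot, made with Feature Extraction 11.0.1.1 on build mm9, and the processed signal is already background-subtracted. The deposited matrix holds log2 values of 55821 probes, which matched the scanner values of the same arrays but for a constant, with column medians of -2.80 to -2.53 on the 7 arrays. Its centring is not given in the sources used here.

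The level is log2 of that signal, scaled to the 75th percentile of its array and averaged over the spots of a probe; control and outlier spots were left out, and 0 spots were saturated. The number of arrays limits the precision. A probe counted as well above background where the flag held for most of its spots. Probes were named through RefSeq accessions (GRCm38.p6): 27980 of 29744 matched. The gene list symbols were on the array for 614 of 625. A gene was tested if a probe carried that flag on 3 or more arrays of either genotype, and the brightest probe stood for it. Of the 23035 genes tested, 13391 carry a RefSeq name, and the rest are features that keep the identifier of the array.

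limma 3.58.1 (lmFit, eBayes, two-sided, R 4.3.3) fitted 8 group means and slide on all 26 arrays; p was adjusted by Benjamini-Hochberg, and the code was tested on simulated data. Whether replicates are separate experiments is not marked, so p-values measure the spread between these pools.

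Genes were named by rule. The rule took Tlr2, Tlr4, Cx3cr1 and the genes called. It also took, among RefSeq-named genes, the 6 smallest p in each direction that missed the threshold. The 3 smallest p of each list and neighbours of Tlr2 and Tlr4 completed it. Fcrl1, Itga9, NAP060823-1, Grxcr1, Slc18a2 and other list members were named after values were seen. Some list members are not reported here. The members and lists were chosen with earlier results of these data known. Alternatives covered the background (normexp, offset 50, on gMedianSignal, chosen after seeing the data, since gMeanSignal was not used), normalization, filter, probes, variance, weights, arrays in the fit, slide and replicate block.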

Additional observations from a re-analysis of the deposited data

Results flagged for a closer look

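Among 93 values checked in the 4 TLR-DKO naive arrays (84 named genes and 9 marker sums), 9 had 1 array far from the other 3 by Dixon's criterion at its 95% critical value of 0.829, which chance passes in about 1 of 20 groups. Of the 9, 5 concerned TLR-DKO replicate 1, the only TLR-DKO naive array on slide 1. In that array Fabp5 stood at 1.23 against -2.15 to -1.58 in the other 3, Rora at -3.77 against -1.75 to -1.34, Tgif1 at 1.50 against 2.47 to 2.66, Hpgd at 5.87 against 4.08 to 4.20 and Atp5d at 0.64 against 1.70 to 1.77. In TLR-DKO replicate 4 Gna15 stood at 2.74 against 3.86 to 4.03, Cd180 at 3.29 against 2.13 to 2.25 and Ifih1 at 0.53 against -1.57 to -1.23. In TLR-DKO replicate 3 the summed oligodendrocyte marker signal was 46.6 multiples of the 75th percentile against 17.8 to 20.6. The cause of these values was not tested.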

How the results depend on the processing

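Tlr2 passed the threshold with the same sign in all 25 alternatives, with differences of -6.31 to -3.29. NAP060823-1 kept its sign in all 25 (-3.91 to -2.26) and passed in 22. The number of genes called, 2, was 1 with the 7 naive mPFC arrays alone, 111 within slide 1 and 7 within slide 2, with Tlr2 the only gene called in both slides; within a slide 1 genotype is a single array, assumed to vary like the others. Leaving out each naive array in turn gave 2 to 11 calls, and the 11 came without wild-type replicate 3, among them Itga9, Sstr1, Itpkc, Trim65, Fnta and Mrpl50, named after the values were seen. Genes whose genotype difference differs between naive and R-SDS mPFC numbered 13 within slide 1, 291 within slide 2 and 5 with array weights, against 0, and 0 without each naive array in turn; against naive NAc the count was 0 under every alternative run. The cause of these changes was not tested. Outside the single slides, genes that became called included Lemd3 with median centring (2.30, adjusted p = 0.00978), Gna15 with a replicate block added to slide (2.22, adjusted p = 0.0314), Nadk2 without TLR-DKO replicate 2 (adjusted p = 0.00465) and Taf3 without wild-type replicate 1 (adjusted p = 0.0415). Median centring moved the median of all genes from 0.023 to 0.226. Of the 84 named genes, 63 kept their sign throughout. Same-numbered arrays of the genotypes correlated at 0.15, -0.04 and 0.07 in their deviations from the group means. Slide was not removed from these deviations and the arrays are few, so they cannot decide whether the numbers pair the samples. The replicate block gave 3 calls beside slide and 2 in place of it. Normexp on gMeanSignal was not run. Dim probes limit the rest: folds of genes not above background are bounds that hold no sampling error.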
